A study of Rattus norvegicus with 12 samples.

Results

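Ptbp1 and Rest encode repressors that hold back the neuronal programme. Their transcripts and those of the Ptbp1 paralogues Ptbp2 and Ptbp3 were followed in rat astrocytes given the compound PT109B. The genes were taken by gene symbol, without use of their values, and 4 of the 9721 genes in the table carried one of these symbols. All 4 passed the filter on low counts and were among the 9491 genes tested. The cells were primary wild-type (WT) astrocytes from the midbrain of newborn SD rats, grown in DMEM with fetal bovine serum. Groups of 3 libraries each came from control cells (0 h) and from cells after 1.5, 3 or 6 h with 10 µM PT109B, a compound given by code name alone. The series concerns the conversion of astrocytes to dopaminergic neurons with this compound. No vehicle is named for the control group, and the labels give no control matched to each time. Whether the replicates are separate cultures or animals is not stated in the labels, so the p-values cover the spread among these libraries alone, part or all of which may be technical.

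PTBP1, the polypyrimidine tract binding protein, binds pyrimidine-rich stretches of pre-mRNA and mostly blocks the use of nearby exons. It is abundant in non-neuronal cells and progenitors. Its neuronal paralogue PTBP2 is kept low by PTBP1, which causes an exon of the Ptbp2 transcript to be skipped and the transcript to be degraded. PTBP3 is the remaining family member. REST is a zinc finger protein that binds RE1 elements in the DNA of neuronal genes and recruits the CoREST and SIN3 complexes with histone deacetylases and demethylases. The microRNA miR-124, whose genes REST represses, acts on the Ptbp1 transcript, which links the pair.

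The promoters of 3 of the 4 genes were found by symbol in a RefSeq table of build GRCr8 and are shown because 1 of these genes rose with treatment while the other 2 did not pass the test with all libraries. Each runs 5′ to 3′ on the gene's strand, from 250 bases before the start site through 50 bases after it. Ptbp1 lies at chr7:10502908-10503207, Ptbp2 at chr2:210558228-210558527 and Rest at chr14:31233402-31233701, all on the minus strand. Capitals mark CCAAT, the AP-1 site TGACTCA and the right part of the RE1 element, GGACAGC or its reverse complement.
Rest: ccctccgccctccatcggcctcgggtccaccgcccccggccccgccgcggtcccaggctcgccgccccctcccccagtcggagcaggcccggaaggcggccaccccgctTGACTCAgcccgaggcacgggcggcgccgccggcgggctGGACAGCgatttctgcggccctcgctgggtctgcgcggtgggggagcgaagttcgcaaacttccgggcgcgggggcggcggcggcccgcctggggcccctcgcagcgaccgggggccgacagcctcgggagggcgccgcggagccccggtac
Ptbp1: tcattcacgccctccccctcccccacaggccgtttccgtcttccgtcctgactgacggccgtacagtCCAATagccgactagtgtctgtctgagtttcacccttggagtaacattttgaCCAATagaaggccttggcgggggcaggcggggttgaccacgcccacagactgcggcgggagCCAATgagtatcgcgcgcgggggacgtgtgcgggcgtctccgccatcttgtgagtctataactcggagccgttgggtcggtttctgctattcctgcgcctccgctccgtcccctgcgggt
Ptbp2: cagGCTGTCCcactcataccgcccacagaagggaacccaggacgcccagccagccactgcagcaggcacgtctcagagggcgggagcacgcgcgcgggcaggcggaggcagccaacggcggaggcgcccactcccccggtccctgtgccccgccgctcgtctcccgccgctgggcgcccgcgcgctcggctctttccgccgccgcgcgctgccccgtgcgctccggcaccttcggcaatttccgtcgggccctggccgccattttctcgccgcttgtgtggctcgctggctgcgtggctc
The Rest promoter held 1 TGACTCA, which starts 141 bases before the start site, and 1 GGACAGC, which starts 102 bases before it. The Ptbp1 promoter held CCAAT 3 times, starting 183, 131 and 70 bases before the start site, and the Ptbp2 promoter held GGACAGC once, on the opposite strand. Searched on both strands in 33469 promoters of the same length, TGACTCA was found in 4.63%, GGACAGC in 6.59% and CCAAT in 37.5%. The E-box CACGTG, the cyclic AMP element TGACGTCA, the EGR motif GCGTGGGCG and the left part of the RE1 element, CAGCACC, were found in none of these 3 promoters, and in 6.42%, 1.83%, 0.544% and 6.78% of all. The GC box GGGCGG, left in lower case, was found 5 times for Rest, 2 times for Ptbp2 and not for Ptbp1, and in 33.1% of all promoters. The 3 promoters were 80.3% (Rest), 74.3% (Ptbp2) and 62% (Ptbp1) G and C, against a median of 51.7%. A match describes letters and not a bound site.

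The libraries held 9368967 to 12498047 counts. Of 15 astrocyte markers, 12 were in the table, and all 12 were detected in every library, with a summed level of 5883 to 11848 CPM (counts relative to the TMM-scaled library size). Across genes, the control libraries correlated with one another at r = 0.987 to 0.991. In each treated group 1 library stood closer to the controls, namely replicate 3 at 1.5 h, replicate 3 at 3 h and replicate 1 at 6 h (r = 0.950 to 0.974), than the other 6 treated libraries (r = 0.908 to 0.919). Values without these 3 libraries are given for the 4 genes and for each list of genes tied to REST or PTBP1. These libraries were picked by their likeness to the controls, so leaving them out favours differences from control across genes. Without them, genes called lower at 1.5 h went from 130 to 2908. Calls and p-values from that fit are therefore descriptions and not independent tests. The choice of scaling also mattered: scaling by total count or by the depth implied by count and FPKM moved the median of all genes by -0.31 and -0.28 (log2) at 3 h and by -0.22 and -0.19 at 6 h. With it the share of calls that were higher than control went from 62.9% to 25.6% and 28.3% at 3 h, from 61.3% to 38.8% and 41.9% at 6 h, and from 58.7% to 43.3% and 43.6% at 1.5 h, where RLE scaling gave 69.8%. In RNA from a mixed culture, fewer cells of a type and less RNA per cell cannot be told apart.

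**Figure D1:**
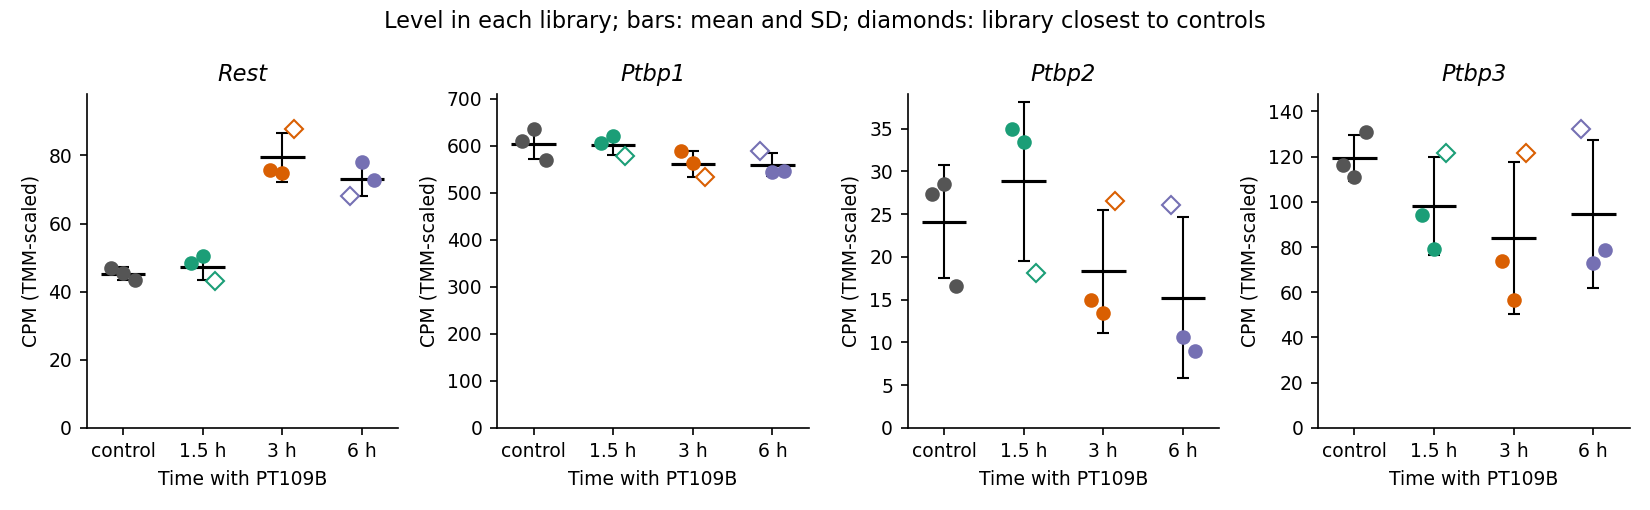
Level of each gene (CPM, counts relative to TMM-scaled library size, vertical axes from 0) in each library by time with PT109B; bars are the mean and SD of 3 libraries, and open diamonds are the treated library of each group closest to the controls. Rest lies at 68.1 CPM or more in all 6 libraries at 3 and 6 h and at 50.3 CPM or less in all 6 libraries of control and 1.5 h, while Ptbp1 overlaps between all groups.

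The Rest transcript (ENSRNOG00000002074), which encodes the RE1-binding repressor, was higher than control at 3 and 6 h with PT109B. In the control libraries it stood at 47.1, 45.3 and 43.5 CPM. At 1.5 h it stood at 48.4, 50.3 and 43.1 CPM, and these libraries overlapped the controls. Its level at 3 h was 75.7, 74.9 and 87.7 CPM. At 6 h the libraries gave 68.1, 78.2 and 72.7 CPM. Every library of the last 2 groups lay above every library of the first 2, and the 3 h library closest to the controls in its other genes had the highest Rest level of all 12. The counts behind these values were 428 to 957 per library.

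The means were 45.3 ± 1.80 (SD, n = 3) CPM in control, 47.3 ± 3.75 at 1.5 h, 79.4 ± 7.15 at 3 h and 73.0 ± 5.04 at 6 h. Against control, Rest rose 1.75-fold at 3 h (log2 fold change 0.81 ± 0.11 SE, 95% interval 0.57 to 1.05, edgeR adjusted p = 0.0007673). At 6 h it was 1.61-fold higher (log2 fold change 0.69 ± 0.11 SE, 0.45 to 0.93, edgeR adjusted p = 0.001241). Its value at 1.5 h was 0.06 ± 0.11, with an interval of -0.18 to 0.30 (edgeR adjusted p = 0.765). Of all genes tested, 1.95% were called higher and 1.37% lower at 1.5 h, 13.5% higher and 7.94% lower at 3 h, and 18.7% higher and 11.8% lower at 6 h, so a call at the later times is common in this table. Blocking on replicate number gave 64 genes called lower at 1.5 h instead of 130. The 3 treated times share their control libraries. With those 3 control-like libraries left out, the log2 fold change was 0.67 at 3 h (edgeR adjusted p = 4.722e-06) and 0.65 at 6 h (edgeR adjusted p = 6.272e-06).

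Between times, Rest rose from 1.5 h to 3 h by 0.75 ± 0.11 (log2, edgeR adjusted p = 0.003199), where 20.3% of genes were called in either direction. A fit blocked on replicate number called 447 genes lower at this step instead of 781, and gave 0.75 for Rest (edgeR adjusted p = 0.01021). The same step gave an edgeR adjusted p of 0.0604 when only the libraries of these 2 times were fitted, with a log2 change of 0.75. Between 1.5 h and 6 h the difference was 0.63 ± 0.11 (edgeR adjusted p = 0.001923), with 37.6% of genes called. From 3 h to 6 h Rest differed by -0.12 ± 0.11, with an interval of -0.36 to 0.12 (edgeR adjusted p = 0.6285), and 4.05% of genes were called. In order of level, 3 h and 6 h thus did not differ beyond their spread, nor did 1.5 h and control, and the step lay between these pairs.

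Ptbp1 (ENSRNOG00000010448), the splicing repressor, was per length (FPKM) the most abundant of the 4 transcripts in every library and passed the test at no time. Its levels in the control libraries were 610, 635 and 568 CPM. At 1.5 h it stood at 606, 619 and 577 CPM. The 3 h libraries held 589, 563 and 534 CPM, and those at 6 h held 589, 545 and 546 CPM. All groups overlapped, and the counts were large, at 4775 to 8886 per library. Means were 604 ± 33.5 (SD, n = 3) CPM in control, 601 ± 21.5 at 1.5 h, 562 ± 27.6 at 3 h and 560 ± 25.0 at 6 h.

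The log2 difference of Ptbp1 from control was -0.01 ± 0.11 SE at 1.5 h (edgeR adjusted p = 0.9752). It was -0.11 ± 0.11 at 3 h, with an interval of -0.35 to 0.14 (edgeR adjusted p = 0.4932). At 6 h the difference was also -0.11 ± 0.11, with an interval of -0.35 to 0.13 (edgeR adjusted p = 0.4519). The intervals bound a fall at 3 and 6 h to 0.35 on the log2 scale under TMM scaling. At 3 h, scaling by total count gave -0.42 (edgeR adjusted p = 0.02773) and scaling by depth -0.39 (edgeR adjusted p = 0.03404), both called, with all genes shifted by -0.31 and -0.28. On leaving these 3 libraries out, the value at 6 h was -0.23, also called (edgeR adjusted p = 0.008488). Between times Ptbp1 differed by -0.10 (3 h against 1.5 h), -0.01 (6 h against 3 h) and -0.10 (6 h against 1.5 h), with edgeR adjusted p of 0.5231, 0.989 and 0.4743.

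**Figure D2:**
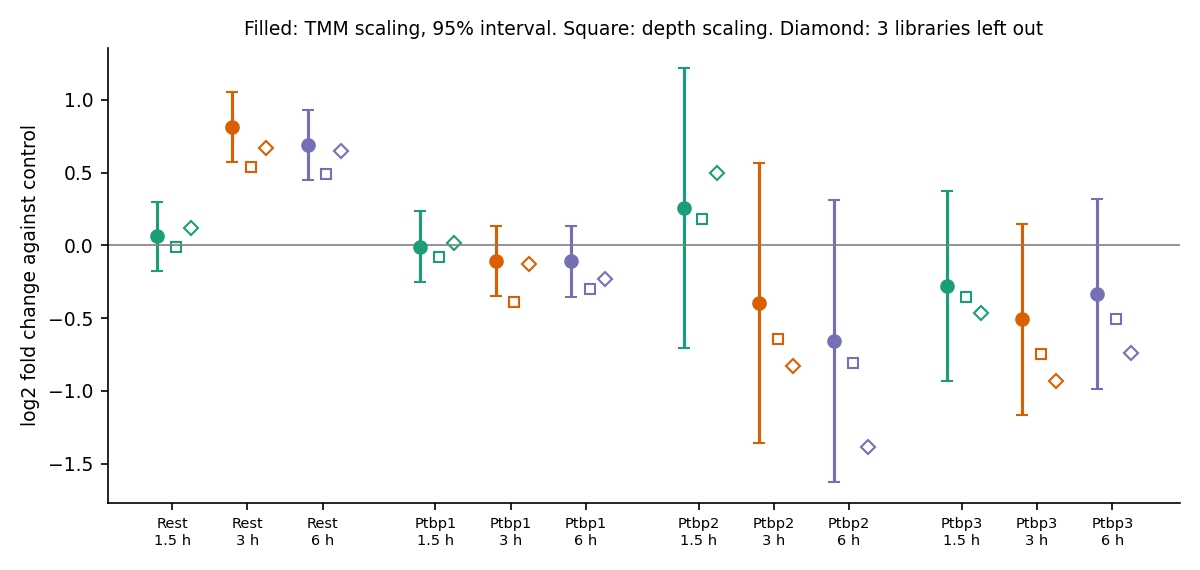
Log2 fold change of each gene against control at 1.5, 3 and 6 h; filled circles with bars are the TMM-scaled edgeR estimates with 95% intervals, open squares use depth scaling and open diamonds leave out the 3 treated libraries closest to the controls. The intervals of Rest at 3 and 6 h (0.57 to 1.05 and 0.45 to 0.93) lie above 0 and those of the other 3 genes all span 0, while the diamonds of Ptbp2 and Ptbp3 lie far below their circles at 3 and 6 h.

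A ratio of both transcripts within a library does not depend on the scaling of libraries. For every 100 Ptbp1 counts there were 7.50 ± 0.313 (SD, n = 3) Rest counts in control, with a range of 7.15 to 7.72. The range was 7.46 to 8.13 at 1.5 h (mean 7.86 ± 0.350), 12.9 to 16.4 at 3 h (14.2 ± 1.94) and 11.6 to 14.4 at 6 h (13.1 ± 1.40). The 1.5 h range overlapped the controls, and the ranges at 3 and 6 h did not. Over all 9 treated libraries, which include those at 1.5 h, the ratio was 1.51-fold higher than in the 3 controls (log2 difference 0.59, exact two-sided permutation p = 0.04545 over 220 arrangements, smallest possible 0.004545). Leaving out 1 library at a time gave 0.52 to 0.67, with exact permutation p from 0.006061 to 0.1273. The p stayed below the threshold only when a 1.5 h library was the one left out. When the 3 control-like libraries were left out, the difference was 0.60 (exact permutation p = 0.05952).

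**Figure D3:**
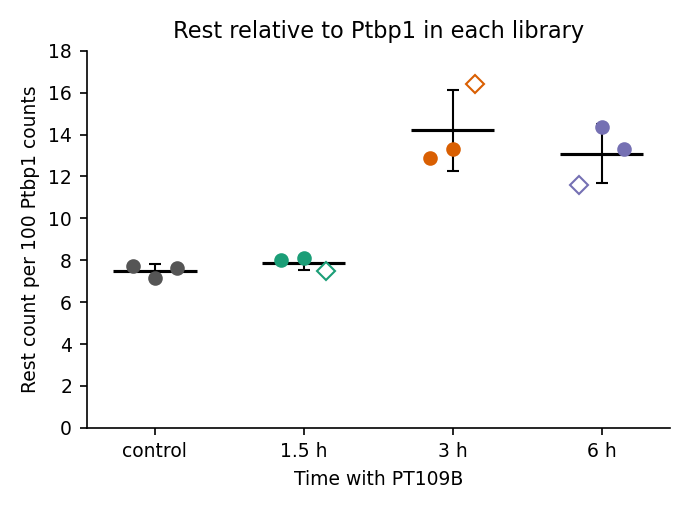
Rest counts per 100 Ptbp1 counts (vertical axis from 0) in each library by time with PT109B; bars are the mean and SD of 3 libraries, and open diamonds are the treated library of each group closest to the controls. Control and 1.5 h libraries lie between 7.15 and 8.13, and the libraries at 3 and 6 h lie between 11.6 and 16.4.

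Ptbp2 (ENSRNOG00000010827), the neuronal paralogue, was low and varied within every group. The controls held 27.3, 28.5 and 16.5 CPM, and the 1.5 h libraries 34.9, 33.4 and 18.1 CPM. At 3 h it stood at 14.9, 13.4 and 26.6 CPM. The 6 h libraries held 26.1, 10.6 and 9.03 CPM. In each treated group the odd value came from the control-like library, and the groups overlapped. Means were 24.1 ± 6.58 (SD, n = 3), 28.8 ± 9.29, 18.3 ± 7.19 and 15.2 ± 9.45 CPM in the order of time. With all libraries the log2 differences from control were 0.26 ± 0.43 SE at 1.5 h, -0.40 ± 0.44 at 3 h and -0.66 ± 0.44 at 6 h (edgeR adjusted p = 0.7561, 0.5197 and 0.2668). The intervals were wide, from -0.70 to 1.22, -1.36 to 0.57 and -1.63 to 0.31, so a 2-fold rise at 1.5 h and a 2-fold fall at 3 or 6 h lay within them. In a fit that left out the 3 libraries closest to the controls, the values were 0.50, -0.83 and -1.39 (edgeR adjusted p = 0.02829, 0.002106 and 4.592e-05). Since the libraries were left out for that likeness, these p-values are descriptions. Leaving out replicate 1 at 6 h alone gave -1.30 at 6 h (edgeR adjusted p = 0.02678).

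Ptbp3 (ENSRNOG00000016334), the third member of the family, split in the same libraries. Control libraries held 116, 111 and 131 CPM. At 1.5 h the levels were 94.1, 79.0 and 122 CPM, and at 3 h they were 73.8, 56.5 and 121 CPM. The 6 h libraries gave 132, 73.0 and 78.5 CPM. In each treated group 2 libraries lay below every control, and the third, which is the one closest to the controls, lay within the control range or, at 6 h, just above it. Means were 119 ± 10.2 (SD, n = 3), 98.3 ± 21.6, 83.9 ± 33.6 and 94.5 ± 32.6 CPM. The log2 differences with all libraries were -0.28 ± 0.30 SE, -0.51 ± 0.30 and -0.34 ± 0.30 (edgeR adjusted p = 0.6005, 0.2279 and 0.3998), with intervals of -0.93 to 0.37, -1.16 to 0.15 and -0.99 to 0.32. After removal of the 3 libraries, they were -0.47, -0.93 and -0.74 (edgeR adjusted p = 0.003071, 8.847e-06 and 6.354e-05). Without replicate 3 at 3 h alone, the 3 h value was -0.94 (edgeR adjusted p = 0.03105). The estimated count of Ptbp3 was not whole in 10 of 12 libraries, so reads shared with another gene may be in it, while the counts of the other 3 genes were whole.

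Mitosis genes moved with the same libraries. All 20 listed mitosis genes were detected in every library, with a mean log2 CPM of 6.16 to 6.60 in control and 6.09 to 6.35 at 1.5 h. Replicates 1 and 2 gave 3.04 and 2.86 at 3 h, as replicates 2 and 3 gave 2.60 and 2.80 at 6 h, against 5.82 in replicate 3 at 3 h and in replicate 1 at 6 h. Of these genes, 1 passed the test as lower at 3 h and 1 at 6 h with all libraries. Without the 3 libraries 20 did so at both times. Of all genes, 7.94% at 3 h and 11.8% at 6 h were called lower with all libraries. Without the 3 libraries 39.6% and 41.8% were. The part of the mitosis genes in the Ptbp2 and Ptbp3 values was not tested. Other markers moved with the libraries too. At 1.5 h the 19 microglia markers summed to 315 and 306 CPM in replicates 1 and 2 and to 3931 CPM in replicate 3, against 3053 to 3718 CPM in control. The 12 fibroblast and meningeal markers summed to 15298 and 15942 CPM in replicates 1 and 2 at 1.5 h and to 5496 CPM in replicate 3, against 5240 to 7386 CPM in control. They summed to 13320, 13073 and 6004 CPM in replicates 1 to 3 at 3 h and to 5364, 10095 and 9817 CPM at 6 h. The 11 oligodendrocyte lineage markers had a mean log2 CPM of 5.67, 5.75 and 4.63 at 1.5 h, against 4.56 to 4.86 in control. Their sums differed less, at 983, 1037 and 873 CPM against 910 to 944 CPM in control. The part of these markers in any of the values was not tested beyond the microglia level. With that level as a covariate the 1.5 h values were -0.06 for Ptbp2, 0.17 for Ptbp3 and -0.04 for Rest. At 3 and 6 h, Rest stood at 87.7 and 68.1 CPM in the libraries with many mitosis transcripts and at 72.7 to 78.2 CPM in the 4 with few, all above the controls. At 1.5 h, with a mitosis level of 6.09 to 6.35, it stood at 43.1 to 50.3 CPM.

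**Figure D4:**
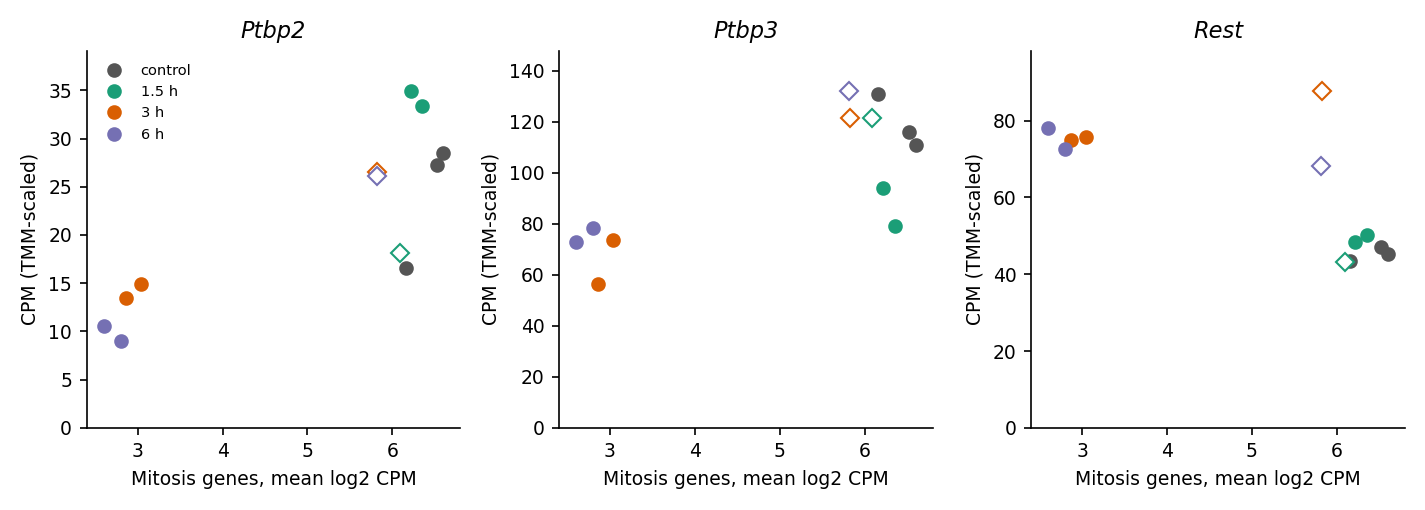
Level of Ptbp2, Ptbp3 and Rest (CPM, vertical axes from 0) against the mean log2 CPM of 20 mitosis genes in each of the 12 libraries, coloured by group, with open diamonds for the treated library of each group closest to the controls. The 4 libraries with a mitosis level of 3.04 or less hold 9.03 to 14.9 CPM of Ptbp2 and 56.5 to 78.5 CPM of Ptbp3, and Rest is high in these 4 and in the 2 diamonds of 3 and 6 h.

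Between genes, levels were compared per transcript length by the authors' FPKM (fragments scaled by length and depth). Ptbp1 stood at 199 ± 8.32 (SD, n = 3) FPKM in control, 188 ± 6.22 at 1.5 h, 153 ± 10.2 at 3 h and 165 ± 23.5 at 6 h, a scale on which the median of all genes also moved down. Rest stood at 10.0 ± 0.449, 9.95 ± 0.854, 14.6 ± 2.97 and 14.1 ± 0.475 FPKM. Within libraries, the FPKM of Ptbp1 was 19.9 ± 0.818 times that of Rest in control, 19.0 ± 1.06 at 1.5 h, 10.6 ± 1.34 at 3 h and 11.7 ± 1.51 at 6 h. Ptbp3 amounted to 8.39% ± 0.907 of the Ptbp1 FPKM in control and to 6.88% ± 1.66, 6.32% ± 2.77 and 6.89% ± 1.93 at 1.5, 3 and 6 h. Ptbp2 amounted to 3.42% ± 0.723, 4.18% ± 1.24, 2.82% ± 1.34 and 2.22% ± 1.18. Ptbp1 was thus by far the main family transcript at each time.

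The genes whose pattern over the 12 libraries was most like that of Rest were Dvl2, Cemip and Insyn2a (Pearson r of log2 CPM 0.986, 0.966 and 0.962 among 8911 genes with a mean of at least 2 CPM). Dvl2, which encodes a Dishevelled protein of Wnt signalling, stood at 27.9 ± 1.67 (SD, n = 3) CPM in control, 30.1 ± 4.14 at 1.5 h, 67.3 ± 7.35 at 3 h and 60.6 ± 6.80 at 6 h. Cemip, which encodes a hyaluronan-binding protein, went from 28.5 ± 0.433 CPM in control to 142 ± 22.6 at 3 h and 142 ± 33.9 at 6 h. For Ptbp1 the closest were Rassf4, Pbx4 and Tead2 (r = 0.912, 0.906 and 0.903). Tead2, a transcription factor of the Hippo pathway, stood at 23.9 ± 2.05 CPM in control and 16.6 ± 2.36 at 6 h. The points share libraries and scaling, so the r values are descriptions.

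The corepressors through which REST acts changed in both directions. Of 21 listed genes, 19 were tested; 0 rose and 1 fell at 1.5 h, 2 rose and 5 fell at 3 h, and 4 rose and 3 fell at 6 h, with a median log2 difference of 0.06, -0.20 and 0.00 against -0.01, -0.03 and -0.02 over all genes. These shares, 10.5% up and 26.3% down at 3 h and 21.1% and 15.8% at 6 h, stand beside the 13.5% and 7.94%, and 18.7% and 11.8%, of all genes. Scaling by total count, under which 6.85% of all genes were called higher and 19.9% lower at 3 h and 12% and 19% at 6 h, gave 2 up and 10 down at 3 h. Leaving out the 3 libraries gave 4 up and 3 down at 1.5 h, 5 up and 9 down at 3 h, and 6 up and 7 down at 6 h. That fit called more of all genes too, of which 28.7% were higher and 30.5% lower at 1.5 h, 31.4% and 39.6% at 3 h, and 33.3% and 41.8% at 6 h.

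Among these, the histone methyltransferases of lysine 9 on histone H3 were lower. Ehmt2 (G9a) stood at 186, 179 and 175 CPM in control and at 112, 104 and 107 CPM at 6 h, with no overlap (log2 fold change -0.74 ± 0.09 SE, edgeR adjusted p = 0.0002605). Its partner Ehmt1 (GLP) was at 89.1, 89.9 and 91.2 CPM in control and 58.5, 49.3 and 51.4 CPM at 3 h (-0.76 ± 0.13, edgeR adjusted p = 0.003032). At 6 h Ehmt1 was back at 75.2, 93.0 and 97.4 CPM, a range that spans the controls. Ctdspl, a small phosphatase of the family that stabilises REST by removing phosphate, fell from 21.3, 18.9 and 17.8 CPM to 4.33, 6.05 and 9.80 CPM at 3 h (-1.52 ± 0.28, edgeR adjusted p = 0.004401). At 6 h Ctdspl stood at 16.1, 18.2 and 16.0 CPM and overlapped the controls. The more abundant Ctdsp1 gave -0.05 ± 0.10 at 3 h and -0.16 ± 0.10 at 6 h, uncalled (edgeR adjusted p = 0.7174 and 0.2475). Ctdsp2 stood at 213, 222 and 232 CPM in control and 127, 131 and 166 CPM at 3 h, without overlap. Cdyl, a chromodomain protein that joins REST to G9a, rose from 59.3, 53.4 and 50.3 CPM to 95.8, 131 and 127 CPM at 6 h (1.11 ± 0.17, edgeR adjusted p = 0.001131). The calls given here for Ehmt2, Ehmt1, Ctdspl and Cdyl were kept in all 18 alternative settings.

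The core of the CoREST complex gave smaller values. Kdm1a, the histone demethylase LSD1, stood at 115, 130 and 124 CPM in control and 150, 198 and 203 CPM at 6 h (0.58 ± 0.15, edgeR adjusted p = 0.01498), a call lost without control replicate 1 or without replicate 2 or 3 at 6 h (edgeR adjusted p up to 0.07268). Rcor1, which encodes CoREST itself, was called higher at 6 h (0.45 ± 0.14, edgeR adjusted p = 0.03319) but not in 12 of 18 settings. Its value at 3 h was 0.10 ± 0.14. Prickle1, a LIM domain protein reported to bind REST, rose from 32.0, 26.7 and 22.5 CPM to 91.2, 95.2 and 69.4 CPM at 3 h (1.65 ± 0.37, edgeR adjusted p = 0.01315), and lost the call without control replicate 2 or 3 (edgeR adjusted p up to 0.05528). Sin3a, the scaffold of the other corepressor complex, fell at 1.5 h (-0.62 ± 0.11, edgeR adjusted p = 0.01352), a call lost in 6 settings, 4 of which leave out 1 library (edgeR adjusted p up to 0.07934). The abundant members Hdac2 and Sin3b stood at 0.27 ± 0.18 and 0.51 ± 0.17 at 3 h, uncalled.

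Regulators of REST protein stability and splicing gave few calls with all libraries. Of 12 listed, 9 were tested, with 0 called at 1.5 h (1 at an unadjusted edgeR p under 0.05, 0 by DESeq2), 0 up and 1 down at 3 h and 1 up and 3 down at 6 h. The shares were 0% up and 11.1% down at 3 h and 11.1% and 33.3% at 6 h, beside 13.5% and 7.94%, and 18.7% and 11.8%, of all genes. Without the 3 libraries, 4 rose and 1 fell, 1 rose and 5 fell, and 2 rose and 4 fell at the 3 times. In that fit 28.7% of all genes were higher and 30.5% lower at 1.5 h. The shares of all genes were 31.4% and 39.6% at 3 h and 33.3% and 41.8% at 6 h. The deubiquitinase gene Usp15, whose product counters the degradation of newly made REST, fell from 113, 110 and 106 CPM to 72.7, 77.3 and 65.5 CPM at 3 h and to 72.1, 62.4 and 56.5 CPM at 6 h (-0.61 ± 0.11 and -0.79 ± 0.11, edgeR adjusted p = 0.003853 and 0.0006656). Btrc, the F-box protein that marks REST for degradation, was higher at 6 h, at 70.4, 97.4 and 91.1 CPM against 49.9, 56.8 and 56.3 CPM (0.67 ± 0.16, edgeR adjusted p = 0.01232), a call lost without control replicate 1 or without replicate 2 or 3 at 6 h (edgeR adjusted p up to 0.07136). Cul1, the cullin of the same ligase, fell at 6 h (-0.46 ± 0.10, edgeR adjusted p = 0.008138). Srrm4, the neural splicing factor that turns Rest transcripts into a truncated form, was near the detection limit at 0.968 to 2.64 CPM in control and 2.84 to 4.18 CPM at 3 h, and its difference of 0.80 ± 0.50 was not called (edgeR adjusted p = 0.2519). Usp7 and Csnk1a1 stood at -0.30 ± 0.10 and 0.25 ± 0.15 at 3 h, uncalled.

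Among known neuronal targets of REST more rose than fell with all libraries, with calls in both directions at 3 and 6 h. Of 46 listed genes 35 were in the table and 33 were tested. At 1.5 h 3 rose and 0 fell, at 3 h 6 rose and 1 fell, and at 6 h 8 rose and 3 fell, with median differences of 0.44, -0.03 and 0.12. The shares that rose, 9.09%, 18.2% and 24.2%, stand beside 1.95%, 13.5% and 18.7% of all genes. The shares that fell, 0%, 3.03% and 9.09%, stand beside 1.37%, 7.94% and 11.8% of all genes. With the 3 libraries removed, the counts were 17 up and 4 down, 12 up and 13 down, and 14 up and 9 down. In that fit 28.7% of all genes were higher and 30.5% lower at 1.5 h, 31.4% and 39.6% at 3 h, and 33.3% and 41.8% at 6 h. The count of risen targets at 1.5 h was 0 without control replicate 1, where 88 of all genes were called higher instead of 185. Leaving out 1 other library lowered or raised this count. The matching shares of all genes are not given here, so no result on the targets is read from those fits. With the replicate number as a block the count was 2 instead of 3, and 137 of all genes were called higher instead of 185.

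**Figure D5:**
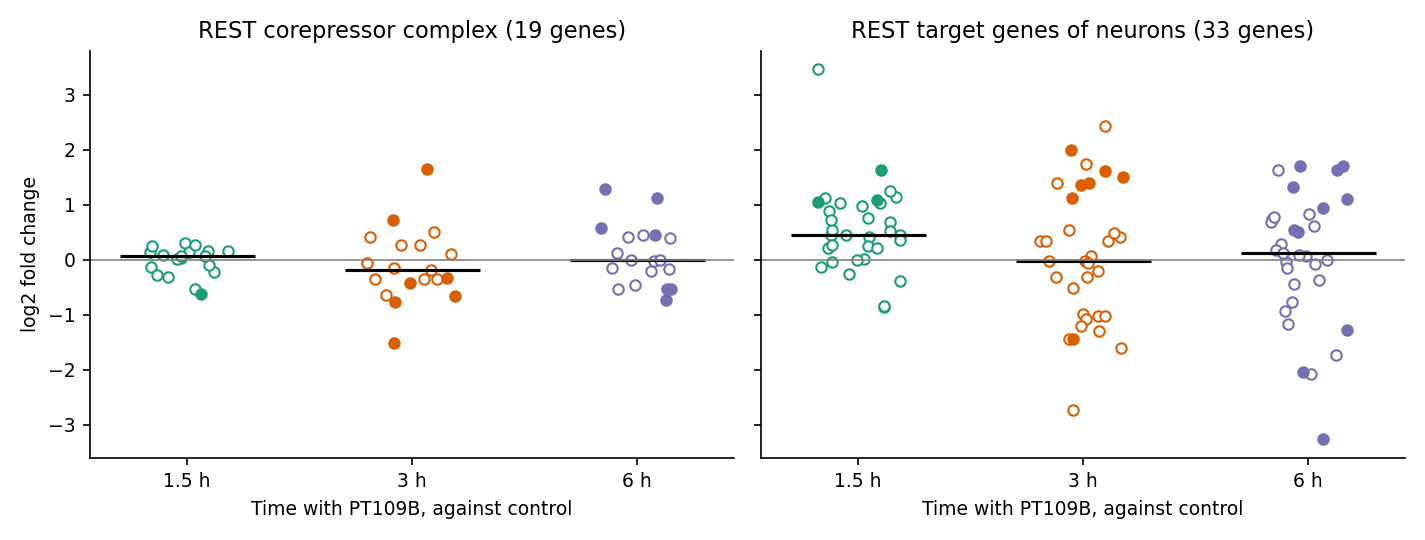
Log2 fold change against control of each tested REST corepressor gene (19) and each tested neuronal target gene of REST (33) at 1.5, 3 and 6 h; filled points passed the edgeR test, open points did not, and bars are medians. Corepressor medians lie at 0.06, -0.20 and 0.00 and target medians at 0.44, -0.03 and 0.12, with called genes on both sides of 0 at 3 and 6 h in both lists.

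The RE1 element was looked for in the promoters of these targets as CAGCACC, 2 free bases and GGACAG, on both strands, with at most 2 mismatches in the 13 fixed letters. It was found in 4 of the 30 listed targets with a promoter in the table, all 4 tested here, and in 656 of all 33469 promoters (1.96%). Of the 33 tested targets only 22 had a promoter to search, and the rest were not searched. The 15 bases of each are shown because they are the only listed targets in which RE1 letters and a transcript level can be set side by side; capitals mark letters that match the element.
Celsr3: CAGCACCgtGGgCAG
Mapk8ip2: CAGCACCctGGAgtG
Rph3a: CAGtACCacGGACAG
Vgf: CAGCACgctGGACAG
They lie in GRCr8 at chr8:118409019-118409033 on the plus strand (Celsr3), chr7:122406363-122406377 on the plus strand (Mapk8ip2), chr12:41203321-41203335 on the minus strand (Rph3a) and chr12:25277023-25277037 on the plus strand (Vgf). Each match starts within the 300 bases around the start site. Distal elements were not searched.

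Of these 4, Vgf, a secreted neuropeptide precursor, rose at each time. It stood at 232, 282 and 213 CPM in control, 553, 579 and 380 CPM at 1.5 h, 710, 770 and 740 CPM at 3 h and 751, 809 and 821 CPM at 6 h. No treated library overlapped the controls, and the library closest to the controls was as high as the others at 3 h. Its log2 fold changes were 1.05 ± 0.17 SE, 1.61 ± 0.17 and 1.71 ± 0.18 (edgeR adjusted p = 0.007838, 0.0002233 and 0.0001519). The 1.5 h call was lost without control replicate 1 or 3 (edgeR adjusted p up to 0.05367), and the later calls were kept in all 18 settings.

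None of the other 3 passed the test as higher. Rph3a, a synaptic vesicle protein, was barely detected, at 0.440 to 0.857 CPM in control and 0 to 0.171 CPM at 6 h, where 2 of 3 libraries had no count. Its log2 value at 6 h was -3.27 ± 1.00 (edgeR adjusted p = 0.03131), a call lost without control replicate 1 or 2 or without replicate 2 or 3 at 6 h (edgeR adjusted p up to 0.09267). Celsr3, an adhesion receptor of axon guidance, stood at 7.96, 13.2 and 16.4 CPM in control and at 26.0, 25.4 and 17.7 CPM at 1.5 h, without overlap but uncalled (0.88 ± 0.39, edgeR adjusted p = 0.2328). At 3 h Celsr3 stood at 7.87, 8.91 and 15.8 CPM, with a difference of -0.20 ± 0.40 (edgeR adjusted p = 0.7263). Mapk8ip2, a scaffold of JNK signalling, stood at 8.22, 10.5 and 10.5 CPM in control and 5.80, 6.71 and 7.97 CPM at 3 h, with a difference of -0.51 ± 0.29 (edgeR adjusted p = 0.2086).

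The other targets named had no match or no promoter to search. Tubb3, the neuronal tubulin, stood at 54.0, 53.2 and 40.5 CPM in control, 182, 167 and 71.8 CPM at 3 h and 109, 188 and 183 CPM at 6 h. The lowest treated library in both groups was the one closest to the controls, and all 6 lay above the controls. It rose by 1.51 ± 0.42 at 3 h and 1.70 ± 0.42 at 6 h (edgeR adjusted p = 0.03073 and 0.01339). The 3 h call was lost in 7 settings, among them without any 1 control and without replicate 1 or 2 at 3 h (edgeR adjusted p up to 0.1067), and the 6 h call without control replicate 3 (edgeR adjusted p = 0.05429). Bdnf, a neurotrophin, went from 3.17, 2.50 and 5.63 CPM to 19.0, 19.8 and 6.05 CPM at 3 h (1.99 ± 0.49, edgeR adjusted p = 0.01813), a call lost without control replicate 1 or 2 or without replicate 1 or 2 at 3 h (edgeR adjusted p up to 0.07513). Scn2a, a neuronal sodium channel subunit, was lower at 3 h, at 2.16, 1.54 and 2.11 CPM against 4.79, 6.28 and 4.84 CPM (-1.45 ± 0.39, edgeR adjusted p = 0.0267), and lost the call without any 1 control or without replicate 1 or 2 at 3 h (edgeR adjusted p up to 0.09549).

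Other targets differed between libraries of 1 group. Syp, the vesicle protein synaptophysin, stood at 8.05, 11.9 and 6.42 CPM in control and at 0.295, 0.330 and 7.88 CPM at 3 h, where the last value is the library closest to the controls (-1.61 ± 1.13, edgeR adjusted p = 0.3126, and -4.84 without the 3 libraries). Stmn2, a microtubule regulator of growing axons, stood at 57.3, 53.4 and 37.0 CPM in control and 88.4, 87.1 and 38.3 CPM at 3 h (0.53 ± 0.49, edgeR adjusted p = 0.4378, and 0.77 without the 3 libraries). Nefl, the light neurofilament chain, stood at 84.7, 76.6 and 78.1 CPM in control and 364, 333 and 105 CPM at 3 h (1.74 ± 0.66, edgeR adjusted p = 0.0794, and 2.07 without the 3 libraries). Of 12 tested neuron markers, 3 of which are Tubb3, Stmn2 and Nefl, the mean log2 CPM was 4.51 to 4.97 in control, 4.61 to 5.49 at 1.5 h, 4.47 to 4.70 at 3 h and 4.56 to 4.66 at 6 h. Their summed level, which follows the most abundant markers, was 570 to 682 CPM in control and 619 to 846 CPM at 1.5 h. In replicates 1 to 3 it was 1663, 1530 and 641 CPM at 3 h and 546, 1323 and 1269 CPM at 6 h. The part of the neuron markers in the target list was not tested.

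Proteins that work with PTBP1 on RNA gave few calls with all libraries. Of 17 listed partners 10 were tested, Ptbp2 and Ptbp3 among them. None was called at 1.5 or 3 h by edgeR (1 at an unadjusted p under 0.05 at each time), while DESeq2 called 0 and 1, the latter down. At 6 h 0 rose and 2 fell, or 20%, beside 11.8% of all genes. The 2 were Matr3, the nuclear matrix protein matrin 3 (-0.63 ± 0.19, edgeR adjusted p = 0.03131), and Mbnl1, a muscleblind splicing factor (-0.61 ± 0.18, edgeR adjusted p = 0.02814). Both lost the call without any 1 control and without replicate 2 or 3 at 6 h (edgeR adjusted p up to 0.09795). The RNA-binding proteins Hnrnpl and Hnrnpa1 stood at -0.19 ± 0.18 and -0.54 ± 0.29 at 3 h, uncalled. With those 3 libraries left out, 6 rose and 1 fell at 1.5 h. At 3 h 2 rose and 6 fell, and at 6 h 1 rose and 7 fell. Beside these, 28.7% of all genes were called higher and 30.5% lower at 1.5 h. The shares of all genes were 31.4% and 39.6% at 3 h and 33.3% and 41.8% at 6 h.

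Genes with exons regulated by PTBP1 were looked at for their total level only, since the table holds no exon counts. Of 21 listed, 19 were tested, Ptbp3 among them. At 1.5 h edgeR called none, with 2 at an unadjusted p under 0.05, and DESeq2 called 1. By edgeR 2 rose and 1 fell at 3 h, and 3 rose and 5 fell at 6 h. The shares were 10.5% up and 5.26% down at 3 h, beside 13.5% and 7.94% of all genes, and 15.8% and 26.3% at 6 h, beside 18.7% and 11.8%. Dlg4, which encodes the synaptic scaffold PSD-95, rose from 147, 148 and 157 CPM to 235, 234 and 264 CPM at 3 h and 288, 259 and 268 CPM at 6 h. Its log2 fold changes were 0.70 ± 0.10 and 0.85 ± 0.10 (edgeR adjusted p = 0.001053 and 0.0002605), and the 3 h call was lost with total count scaling only. Fgfr2, a fibroblast growth factor receptor, fell from 222, 225 and 200 CPM to 116, 138 and 138 CPM at 6 h (-0.72 ± 0.14, edgeR adjusted p = 0.00368). Ank2, a membrane skeleton adaptor, fell by 0.78 ± 0.18 on the log2 scale at 6 h (edgeR adjusted p = 0.008319). The abundant members Flna and Pkm stood at 0.52 ± 0.39 and 0.49 ± 0.20 at 3 h, uncalled. Scaling by total count gave 0 up and 3 down at 3 h and 1 up and 5 down at 6 h. Under it 6.85% of all genes were called higher and 19.9% lower at 3 h, and 12% and 19% at 6 h. A fit without the 3 libraries gave 10 up and 3 down at 1.5 h. It gave 6 up and 7 down at 3 h and 7 up and 9 down at 6 h, with Ptbp3 among those down at each time. Of all genes, that fit called 28.7% higher and 30.5% lower at 1.5 h. The shares were 31.4% and 39.6% at 3 h and 33.3% and 41.8% at 6 h.

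Splicing factors of neurons gave no call at any time by edgeR in 14 tested of 17 listed, with 2, 1 and 1 at an unadjusted p under 0.05 at 1.5, 3 and 6 h. DESeq2 called 0, 1 and 1, both down. Rbfox2 and Celf3 stood at 0.35 ± 0.20 and -0.07 ± 0.31 at 3 h, and the median of the list was 0.28, -0.41 and -0.18. Without the 3 libraries the list counted 8 up and 0 down, 2 up and 10 down, and 1 up and 5 down. That fit called 28.7% of all genes higher and 30.5% lower at 1.5 h. For all genes the shares were 31.4% and 39.6% at 3 h and 33.3% and 41.8% at 6 h.

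In the wider hnRNP family, RNA-binding proteins to which PTBP1 belongs as hnRNP I, 18 of 28 listed genes were tested. No member was called at 1.5 h by edgeR (6 at an unadjusted p under 0.05; DESeq2 called 2 up), 1 rose and 2 fell at 3 h, and 1 rose and 5 fell at 6 h. Hnrnpm fell from 295, 299 and 286 CPM to 174, 168 and 200 CPM at 3 h and 176, 119 and 134 CPM at 6 h (-0.70 ± 0.15 and -1.04 ± 0.15, edgeR adjusted p = 0.008974 and 0.0007366). Hnrnpr fell from 181, 163 and 166 CPM to 111, 103 and 102 CPM at 6 h (-0.69 ± 0.10, edgeR adjusted p = 0.0007645). Hnrnpdl fell by 0.72 ± 0.09 on the log2 scale at 6 h (edgeR adjusted p = 0.0004407). These calls were kept in all 18 settings. The gene that rose was Hnrnph3, by 0.77 ± 0.19 at 3 h and 0.73 ± 0.19 at 6 h (edgeR adjusted p = 0.01966 and 0.01702). Its calls were lost in 6 and 5 of the 18 settings. Ptbp1 itself stood at -0.11 at 3 and 6 h, beside medians of -0.03 and -0.02 over all genes. Of the family, 5.56% rose and 11.1% fell at 3 h, beside 13.5% and 7.94% of all genes, and 5.56% rose and 27.8% fell at 6 h, beside 18.7% and 11.8%. Total count scaling gave 0 up and 6 down at 6 h, where it called 12% of all genes higher and 19% lower. Without the 3 libraries the family counted 13 up and 0 down at 1.5 h. It counted 4 up and 10 down at 3 h and 3 up and 13 down at 6 h. Of all genes, that fit called 28.7% higher and 30.5% lower at 1.5 h. The shares were 31.4% and 39.6% at 3 h and 33.3% and 41.8% at 6 h.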

How the data were processed

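RNA-seq of 12 libraries (4 groups of 3, from the sample labels) was analysed. Per the file headers, each gene has, for each library, the authors' estimated count and FPKM. The submitters' processing notes name StringTie 2.2.1; which aligner, build and annotation were used is not given in the sources used here, nor by which rule the 9721 genes of the table, part of a rat genome, were chosen, so adjusted p-values and shares refer to this table. Of the counts 9.49% were not whole and were rounded. edgeR 4.0.16 (R 4.3.3) fitted all 12 libraries at once by group (robust quasi-likelihood), after filterByExpr (230 genes removed), with TMM scaling and Benjamini-Hochberg adjustment over 9491 genes; an adjusted p below 0.05 was called. The SE comes from the log2 fold change and its F value. CPM levels use TMM-scaled library sizes; means of log2 CPM add 0.5. The ratio of Rest to Ptbp1 was tested by an exact permutation of libraries.

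The genes, the 14 gene lists and the tests were chosen with earlier results of these data known. Named genes were, per list and time, up to 4 called genes with the largest change and up to 2 uncalled ones with the highest counts, a set of fixed names, and the 3 genes most like Rest and like Ptbp1. Outside this rule, Celsr3 and Mapk8ip2 were named for an RE1 match. The 6 h values of Ehmt1 and Ctdspl and the levels of Ctdsp2 were chosen after they were seen. Whether a replicate number marks a shared culture is not in the labels. Deviations of same-numbered libraries from their group means correlated at over 0.1 in every pair of control with 1.5 h (r = 0.23 to 0.48) and of 1.5 h with 3 h (0.17 to 0.23), and not in every pair of the other group pairs. For those 2 comparisons the blocked value is given where it changes a count. In them replicates 1 and 2 correlated across numbers too, at 0.23 and 0.32 for control with 1.5 h and at 0.22 and 0.17 for 1.5 h with 3 h. Pairs of replicate 3 with another number were negative. These values therefore do not show a pairing by number. Alternatives were other scaling, no filter, a replicate block, 2-group fits, DESeq2 1.42.0, limma 3.58.1 on log2 FPKM with a pseudocount of 1 or 0.1, a microglia covariate and leaving out libraries. Tested on simulated counts, the fit called 29% (1.5 h), 38% (3 h) and 31% (6 h) of 2-fold changes, and 74%, 73% and 79% of 4-fold changes. False calls were 4 of 9416, 4 of 9406 and 6 of 9403 genes. Apart from planted changes, the simulated libraries were drawn independently around a common mean per gene. They held no control-like libraries, so these rates do not give the error in the real libraries. Promoters are from RefSeq (GRCr8), used for their own coordinates only.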

Additional observations from a re-analysis of the deposited data

Results flagged for a closer look

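The level of Rest differed between times with PT109B, by the test of the difference itself. The labels give no control for each time, so PT109B and time or handling cannot be told apart. Rest was higher at 3 h than at 1.5 h by 0.75 on the log2 scale (edgeR adjusted p = 0.003199) and higher at 6 h than at 1.5 h by 0.63 (edgeR adjusted p = 0.001923), with all 3 libraries of each later time above all 3 of 1.5 h. Groups of 3 libraries are too small for the check of single outlying libraries.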

How the results depend on the processing

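Over the 25 results on the 4 genes and the ratio, 446 alternative values were computed, of which 392 kept direction and side of the threshold, 11 lost the call, 18 gained one and 25 changed sign. Rest at 3 h, at 6 h and at 6 h against 1.5 h kept both in all 18 alternatives (0.48 to 0.84, 0.45 to 0.74 and 0.47 to 0.71). Rest at 3 h against 1.5 h lost the call in the fit of 2 groups (0.75). The ratio lost its call without the 3 libraries closest to the controls (0.60) and in 9 of 12 fits that left out 1 library (0.52 to 0.67).

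Ptbp1 at 3 h was called lower with total count scaling (-0.42), depth scaling (-0.39) and limma on FPKM (-0.39 and -0.39), settings that shift all genes down. Without the 3 libraries, calls were gained by Ptbp1 at 6 h (-0.23) and at 6 h against 1.5 h (-0.25), by Ptbp2 at 1.5, 3 and 6 h (0.50, -0.83 and -1.39), at 3 h against 1.5 h (-1.32) and at 6 h against 1.5 h (-1.88), and by Ptbp3 at 1.5, 3 and 6 h (-0.47, -0.93 and -0.74) and at 3 h against 1.5 h (-0.46). Those libraries were picked by their likeness to the controls, so the gained calls are descriptions. Leaving out 1 library gave -0.94 to -0.32 for Ptbp3 at 3 h, -1.30 to -0.45 for Ptbp2 at 6 h and -1.55 to -0.72 for Ptbp2 at 6 h against 1.5 h.

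Signs changed for values near 0. Ptbp1 at 1.5 h gave 0.029 (RLE), 0.016 (upper quartile), 0.011 (no filter), 0.017 (without the 3 libraries), 0.013 (2 groups) and 0.029 (DESeq2), and -0.051 to 0.028 without 1 library. Rest at 1.5 h gave -0.013 (total count), -0.011 (depth), -0.045 (microglia level) and -0.012 and -0.014 (limma). With the microglia level Ptbp2 at 1.5 h gave -0.055 and Ptbp3 0.17. Ptbp1 at 6 h against 3 h gave 0.093 (total count), 0.089 (depth), 0.022 (2 groups) and 0.10 and 0.10 (limma). Without 1 library, Ptbp2 at 6 h against 3 h ranged from -0.90 to 0.11, Ptbp3 at 6 h against 3 h from -0.15 to 0.53 and Ptbp3 at 6 h against 1.5 h from -0.37 to 0.13. At 3 h, total count scaling, depth scaling and limma with either pseudocount gave -0.063, -0.033, -0.031 and -0.032 for Hdac2, -0.057, -0.028, -0.039 and -0.039 for Csnk1a1, -0.20, -0.18, -0.15 and -0.17 for Tnrc6a, and -0.21, -0.18, -0.15 and -0.17 for Rcor1; Celf3 ranged from -0.41 to 0.082 without 1 library. Apart from the shift of all genes under those scalings, the cause was not tested.

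Over the 18 pairs of same-numbered libraries of different groups, r ranged from -0.69 to 0.64, with 8 over 0.1, of which 6 make up the pairings of control with 1.5 h and of 1.5 h with 3 h. By this measure 6 of 12 libraries correlated best with their own number. With the replicate number as a block Rest stood at 0.81 at 3 h (edgeR adjusted p = 0.003477) and 0.69 at 6 h (edgeR adjusted p = 0.004367), no call on the 4 genes changed, and 137 genes were called higher and 64 lower at 1.5 h, against 185 and 130, and 796 higher and 447 lower at 3 h against 1.5 h, where 1148 and 781 were called without it. Without the 3 libraries the counts were 2734 and 2908 at 1.5 h, 2989 and 3767 at 3 h (1281 and 754 with all) and 3169 and 3985 at 6 h (1771 and 1120 with all). Ptbp2 rested on 79 to 426 counts per library.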

Other observations

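Genes of the microRNA machinery, through which miR-124 acts on the Ptbp1 transcript, gave calls in both directions. Of 14 listed genes 9 were tested; none was called at 1.5 h by edgeR (0 at an unadjusted p under 0.05, 0 by DESeq2), 2 rose and 1 fell at 3 h, and 2 rose and 2 fell at 6 h. The shares were 22.2% up and 11.1% down at 3 h and 22.2% and 22.2% at 6 h, beside 13.5% and 7.94%, and 18.7% and 11.8%, of all genes. Without the 3 treated libraries closest to the controls, 3 rose and 2 fell at 1.5 h. At 3 h 3 rose and 3 fell, and at 6 h 3 rose and 4 fell. That fit called 28.7% of all genes higher and 30.5% lower at 1.5 h. For all genes the shares were 31.4% and 39.6% at 3 h and 33.3% and 41.8% at 6 h. Ago2, the argonaute that can cut its targets, rose from 30.3, 32.4 and 31.5 CPM to 53.6, 72.4 and 63.1 CPM at 6 h (log2 fold change 1.00 ± 0.15 SE, edgeR adjusted p = 0.0008217), with no overlap. Ago1 fell from 108, 102 and 117 CPM to 75.9, 77.1 and 81.5 CPM at 3 h and 72.0, 78.8 and 71.5 CPM at 6 h (-0.48 ± 0.10 and -0.56 ± 0.10, edgeR adjusted p = 0.008974 and 0.00262). Tnrc6c, a GW182 protein that argonautes recruit, rose at 6 h (0.93 ± 0.16, edgeR adjusted p = 0.002055). These calls were kept in all 18 alternative settings. Total count scaling gave 0 up and 2 down at 3 h and 2 up and 4 down at 6 h. Under it 6.85% of all genes were called higher and 19.9% lower at 3 h, and 12% and 19% at 6 h. The abundant members Tnrc6a and Drosha were not called at 3 h. MicroRNA levels were not analysed here.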
